A study of Mus musculus with 31 samples.

Results

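The 0.2U groups 1C and RPC were compared directly, 4 mice against 4, using 8 of the 31 libraries of the series and 14570 of its 22609 gene symbols, those that reached 10 counts in 3 or more of the 8. All 8 libraries came from masseter muscle (MM) of male C57BL/6J mice injected in the muscle with Collagenase type 2 at 0.2U, an enzyme that degrades extracellular matrix and was used to model myogenous temporomandibular disorder. The labels give 1C and RPC the same strain, sex, tissue, agent and dose, explain neither name, and give no day post-injection for either, so no day was assigned here and the direction of time is unknown. Each library was made from the left MM of 1 mouse as whole tissue, with the tendons dissected away as far as possible. Levels in 3 mice of the vehicle group are given beside the results as background only, and no test against vehicle was made.

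The masseter is a fast-twitch jaw muscle that lies under facial skin, against the parotid salivary gland and on the mandible. Collagenase opens the collagen scaffold between fibres, after which macrophages clear debris, fibroblasts rebuild matrix and satellite cells repair fibres. RNA from whole tissue mixes all of these cells with any neighbouring tissue that the dissection carries along, and in such bulk libraries fewer cells of a type and less RNA per cell cannot be told apart.

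The 8 libraries differed in depth and in the summed levels of salivary and sebaceous gland genes. Reads counted on genes ranged from 16450240 to 18299555 in 1C and from 19967262 to 25902295 in RPC, without overlap between the groups. The 2-sided exact permutation test gave p = 0.0286, the smallest that 4 against 4 allows (0.0429 after adjustment over 6 library measures). Reads on no annotated gene made up 18.1% to 22.5% in 1C and 10.7% to 16.5% in RPC (same exact p). All 10 muscle identity genes, such as Acta1, Ckm and Ttn, were present in every library, with a summed level of 65118 to 89813 CPM in 1C and 64178 to 81618 CPM in RPC, where CPM are read counts scaled to library size with edgeR's TMM factors. In vehicle mice this sum ran from 92345 to 120751 CPM, above every 1C and RPC mouse. Genes of other tissues did not fall evenly. Salivary gland genes summed to 14539, 602, 63796 and 443 CPM in 1C mice 1 to 4 and to 56295, 642528, 406272 and 230878 CPM in RPC mice 1 to 4. In vehicle mice the same 28 genes ran from 301.5 to 322446 CPM, and Smr2, Smgc and 4930432K09Rik had no count in any 1C or RPC library. Sebaceous gland genes summed to 1538, 1123 and 1734 CPM in 1C mice 1, 3 and 4, but to 88.1 CPM in 1C mouse 2, against 129.8 to 197 CPM in RPC and 81.5 to 116 CPM in vehicle mice. The part of salivary, skin and other carried tissue in the results below was not tested beyond the values given. Mouse 2 of 1C and mouse 3 of RPC stood apart on several lists, so the counts below are also given without them.

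**Figure D1:**
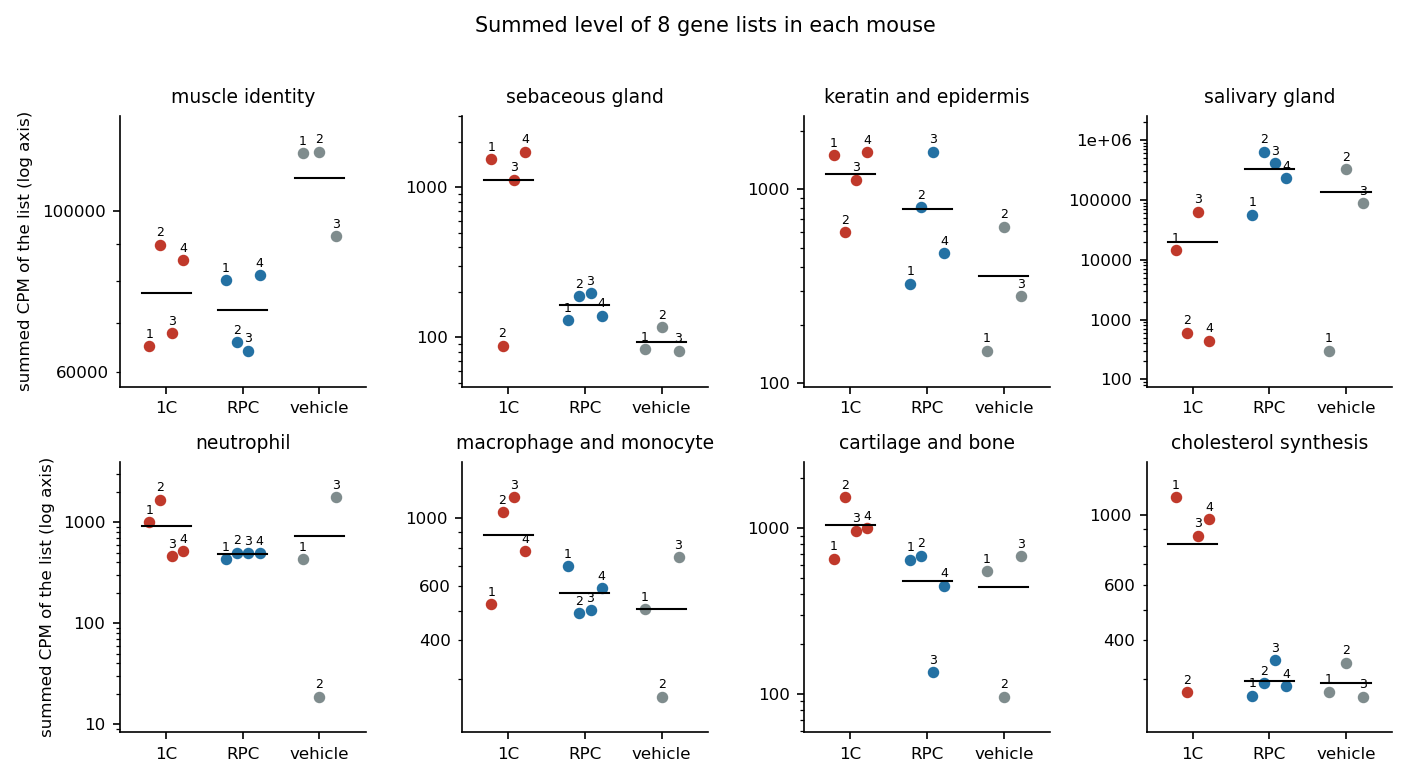
Summed CPM (log axis) of 8 gene lists in each 1C, RPC and vehicle mouse; numbers are the mice and black bars the group means. The muscle identity sums of 1C and RPC overlap and lie below those of vehicle mice. Mouse 2 of 1C lies apart from the other 1C mice on the sebaceous and cholesterol lists, and salivary sums span several powers of 10.

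No gene passed edgeR's quasi-likelihood test of 1C against RPC. At an adjusted p under 0.05, 0 of 14570 genes (0%) were higher and 0 (0%) lower in 1C, and the lowest adjusted p was 0.244. By the study's criteria for DEGs, which also ask for a change of more than 2-fold and a group mean above 1 RPKM (reads per kilobase and library size), the counts were likewise 0 and 0. At an unadjusted p under 0.05 there were 892 genes higher in 1C (6.12%) and 566 lower (3.88%). Every 1C mouse exceeded every RPC mouse for 362 genes (2.48%), and every 1C mouse was below every RPC mouse for 276 genes (1.89%), which is 638 genes without overlap (4.38%). DESeq2, the tool the study used, called 209 genes higher (1.43%) and 108 lower (0.741%) in 1C, of which 145 (0.995%) and 61 (0.419%) met the criteria for DEGs. In both directions together DESeq2 called 317 genes (2.18%), and at an unadjusted p under 0.05 it gave 948 higher (6.51%) and 732 lower (5.02%). The median log2 fold change of all tested genes was 0.01, with 50.8% of genes higher in 1C.

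The number of edgeR calls higher in 1C changed with 1C mouse 2. Without it, edgeR called 145 genes higher in 1C (1.0%) and 2 lower (0.0138%), and for 112 of the 145 the level of 1C mouse 2 itself lay at or below the highest RPC mouse. Of those 145 genes, 119 were also among the DESeq2 calls with all 8 mice. Without 1C mouse 2 and RPC mouse 3 together, edgeR called 154 higher and 5 lower. With all 31 libraries in 1 fit, which share an estimate of the spread, it called 81 higher (0.556%) and 9 lower (0.0618%). Leaving out any other single mouse gave 0 genes, except that 3 were lower in 1C without 1C mouse 3. Among the 209 DESeq2 calls higher in 1C, 88 separated the groups fully and 103 had 1C mouse 2 at or below the highest RPC mouse. Of the 108 calls lower in 1C, 65 separated the groups fully. The p-values rest on the spread between mice, with 1 library for each. With 0 genes past edgeR's threshold, every gene below is given by its values, with the DESeq2 adjusted p as an alternative test. Counts of DESeq2 calls in the lists below stand beside its shares over all tested genes, 1.43% higher and 0.741% lower. List counts at an unadjusted edgeR p under 0.05 stand beside 6.12% higher and 3.88% lower. Those of genes without overlap stand beside 2.48% higher and 1.89% lower.

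**Figure D2:**
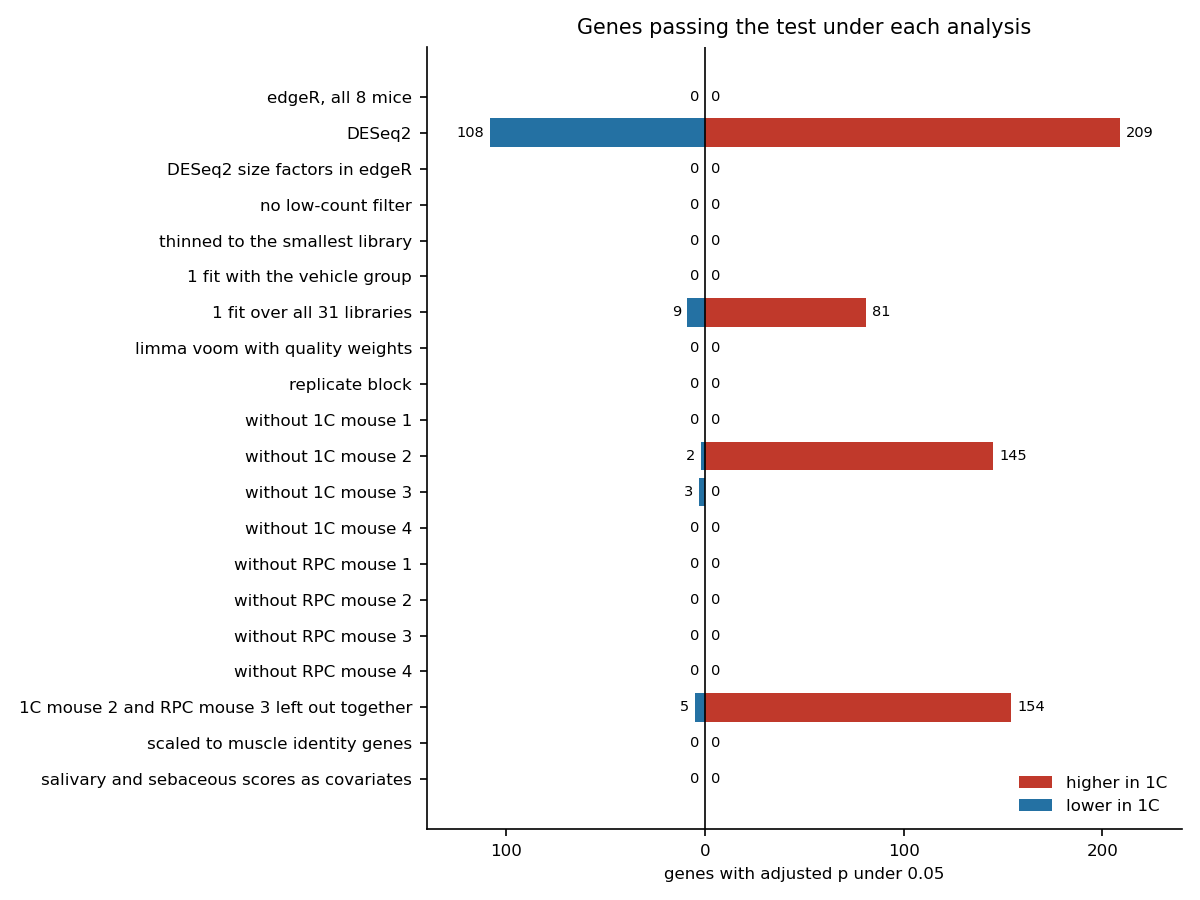
Number of genes with an adjusted p under 0.05 (horizontal axis), higher in 1C to the right and lower in 1C to the left, under each analysis of 1C against RPC. Bars appear for DESeq2 (209 and 108), for the fit over all 31 libraries (81 and 9), without 1C mouse 2 (145 and 2), without 1C mouse 3 (0 and 3) and without 1C mouse 2 and RPC mouse 3 together (154 and 5).

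The gene with the smallest p was Clec3a, a C-type lectin of cartilage (mm9, chromosome 8, 116941986 to 116949746). Its level was 7.16, 16.9, 4.13 and 8.07 CPM in 1C mice 1 to 4 and 0.227, 0.577, 0.776 and 0.176 CPM in RPC mice 1 to 4. All 1C mice were above all RPC mice, which the rule that chose this gene requires, so the separation is not a finding. The vehicle mice, at 0.181 to 0.283 CPM, were near RPC. The log2 fold change of 1C over RPC was 4.39 ± 0.60 (SE), with an adjusted p of 0.244 by edgeR and 1.47e-10 by DESeq2.

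Further genes of cartilage matrix were higher in most 1C mice. Col10a1 and Snorc were chosen by the same rule, so their groups do not overlap by selection. Both reached the count filter through their 1C libraries. Col10a1, the collagen of hypertrophic cartilage (chromosome 10, 34109787 to 34116891), was at 48.3, 9.67, 24.8 and 53.9 CPM in 1C, whereas in RPC it had no count in mice 1, 3 and 4 and 1.30 CPM in mouse 2. Its exons overlap Nt5dc1 on the opposite strand, and whether the counting used strand is not given in the sources used here. The cartilage proteoglycan gene Snorc, listed as 3110079O15Rik, was at 3.21, 0.691, 1.26 and 3.39 CPM in 1C and at no more than 0.144 CPM in RPC, at least 13.4-fold higher in 1C with RPC set to 3 counts per library. Lect1, which encodes chondromodulin, was at 22.8, 10.2 and 22.3 CPM in 1C mice 1, 3 and 4 but at 0.506 CPM in 1C mouse 2, below the 1.87 CPM of RPC mouse 2. The chains of collagen IX, a fibril-associated collagen of cartilage, behaved alike. Col9a1 was at 0.895 to 1.75 CPM in 1C and 0.0881 to 0.433 CPM in RPC, and Col9a2 at 6.22 to 26.4 CPM against 0.227 to 3.89 CPM. Col9a3 was at 3.50 to 13.6 CPM in 1C and 0.880 to 3.46 CPM in RPC, so that all 3 chains separated the groups, with DESeq2 adjusted p of 0.0011, 0.000194 and 0.00373.

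The list of cartilage and bone genes had 20 of 21 tested members higher in 1C, with a median log2 fold change of 1.19 beside 0.01 for all genes. DESeq2 called 3 of the 21, all higher, beside 1.43% of all tested genes. The abundant members of the list were those of bone and osteoclasts, and these overlapped between groups. Spp1 (osteopontin, which macrophages also make) was at 122, 384, 259 and 188 CPM in 1C and 152, 143, 14.7 and 97.7 CPM in RPC, and Acp5 (the osteoclast phosphatase TRAP) at 96.2 to 212 CPM against 23.7 to 109 CPM. RPC mouse 3 was the lowest for both. In contrast, the fibrillar collagens of the muscle scaffold itself did not separate the groups. Col1a1 was at 1256 to 3029 CPM in 1C and 245 to 3418 CPM in RPC, with a log2 fold change of 0.49 ± 0.65 (SE). The value for Col1a2 was 0.03 ± 0.57, with levels of 1440.1 to 2679.6 CPM in 1C and 369.7 to 3824 CPM in RPC. Of 40 collagen genes tested, 25 were higher in 1C with a median of 0.12. DESeq2 called 4 of the 40, all higher, beside 1.43% of all tested genes.

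The second group higher in 1C was of sebaceous gland and epidermis. Sebaceous cells make wax esters and very long fatty acids for the oil film of skin. Awat1, which makes wax esters, was at 40.7, 0.0460, 23.7 and 31.3 CPM in 1C mice 1 to 4 and at 0.0453, 0.0721, 0.155 and 0 CPM in RPC mice 1 to 4. Thus 3 of the 1C mice were above all others and 1C mouse 2 lay within the range of RPC and vehicle. With RPC set to 3 counts per library, the mean of 1C was at least 149.8-fold higher. Far2, a fatty acyl-CoA reductase of the same pathway, was at 118, 0.875, 111 and 135 CPM in 1C and 0.136 to 1.71 CPM in RPC. Elovl4, an elongase of very long fatty acids, was at 489, 5.39, 327 and 505 CPM in 1C and 1.63 to 9.83 CPM in RPC. In each of these genes 1C mouse 2 again fell inside the RPC range. Of 14 sebaceous genes tested, 11 were higher in 1C, with a median log2 fold change of 4.41. DESeq2 called 8 of them, all higher, and edgeR called 8 without 1C mouse 2.

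The epidermal genes followed the same mice. Krt79, a keratin of sebaceous ducts, was at 139, 1.24, 111 and 142 CPM in 1C and 1.06 to 2.45 CPM in RPC. Krt14, the keratin of basal keratinocytes, was at 128, 20.3, 123 and 152 CPM in 1C and 8.66, 27.8, 29.3 and 11.3 CPM in RPC, with a DESeq2 adjusted p of 0.00195. Krt15 and Krt17 were at 21.8 to 72.7 CPM in 1C mice 1, 3 and 4 and at 1.34 and 2.72 CPM in 1C mouse 2, against 0.264 to 6.13 CPM in RPC. By contrast, Krt10 and Krt2, keratins of the differentiated layers, were highest in RPC mouse 3. Krt10 was at 51.3 to 163 CPM in 1C and 39.8 to 253 CPM in RPC, and Krt2 had a log2 fold change of -0.11 ± 0.69 (SE). Pnpla1, a lipase needed for the skin barrier, was the only one of the 4 list genes chosen by rule that separated the groups, at 0.875 to 4.0 CPM in 1C and 0.220 to 0.569 CPM in RPC. Across 35 keratin and epidermis genes tested, 28 were higher in 1C (median 1.23), and 14 were DESeq2 calls, all higher. Summed over its 42 genes, however, this list ran from 601 to 1552 CPM in 1C and from 327 to 1567 CPM in RPC.

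Among the genes chosen by rule, which by that rule have 1C mouse 2 above every RPC mouse, several had it as the lowest 1C mouse. Rarres1, a retinoic acid responsive gene, was at 77.6, 2.76, 33.9 and 52.3 CPM in 1C and 1.32 to 1.73 CPM in RPC. Cst6, an inhibitor of cysteine proteases in epidermis, was at 34.3, 6.35, 19.5 and 34.7 CPM in 1C and 3.62 to 4.53 CPM in RPC. Pnpla5, a patatin-like lipase, was at 9.74, 0.184, 5.73 and 8.92 CPM in 1C, and Ugt1a1 at 5.27, 0.138, 3.06 and 5.66 CPM. Both had no more than 3 counts in any RPC library, at least 38.4-fold and 22.1-fold below the mean of 1C. For both genes 1C mouse 2 was itself near that floor, so the folds rest on 1C mice 1, 3 and 4. The value for Ugt1a1 is uncertain, since 58.2% of its 50-base windows occur in other genes of its cluster. For Rdh12, a retinol dehydrogenase, 1C mouse 2 was again the lowest of its group, at 2.49 CPM beside 2.91 to 6.29 CPM in the others and 0.724 to 1.41 CPM in RPC.

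The last 4 genes of the rule were Emb, Dock8, Vash2 and 9130404H23Rik. Embigin (Emb), a cell-surface partner of monocarboxylate transporters, was at 39.0, 17.0, 31.9 and 38.7 CPM in 1C and 9.16, 11, 9.99 and 11.3 CPM in RPC, with 7.71 to 15.4 CPM in vehicle mice, so that 1C mouse 2 was the lowest of its group for this gene too. Dock8, an exchange factor of leukocytes, was at 21.5, 19.3, 19.3 and 23.6 CPM in 1C and 10.7 to 13.3 CPM in RPC, with a log2 fold change of 0.81 ± 0.13 (SE). Vash2, a tubulin carboxypeptidase, was at 12.7 to 19.2 CPM in 1C and 4.71 to 9.73 CPM in RPC. Vehicle mice were at 13.6, 37.9 and 45.1 CPM, the first within the 1C range and the others above both groups. In 9130404H23Rik, too, 2 vehicle mice were above both groups, at 3.93 and 7.31 CPM, beside 1.53 to 2.45 CPM in 1C and 0.227 to 0.776 CPM in RPC.

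**Figure D3:**
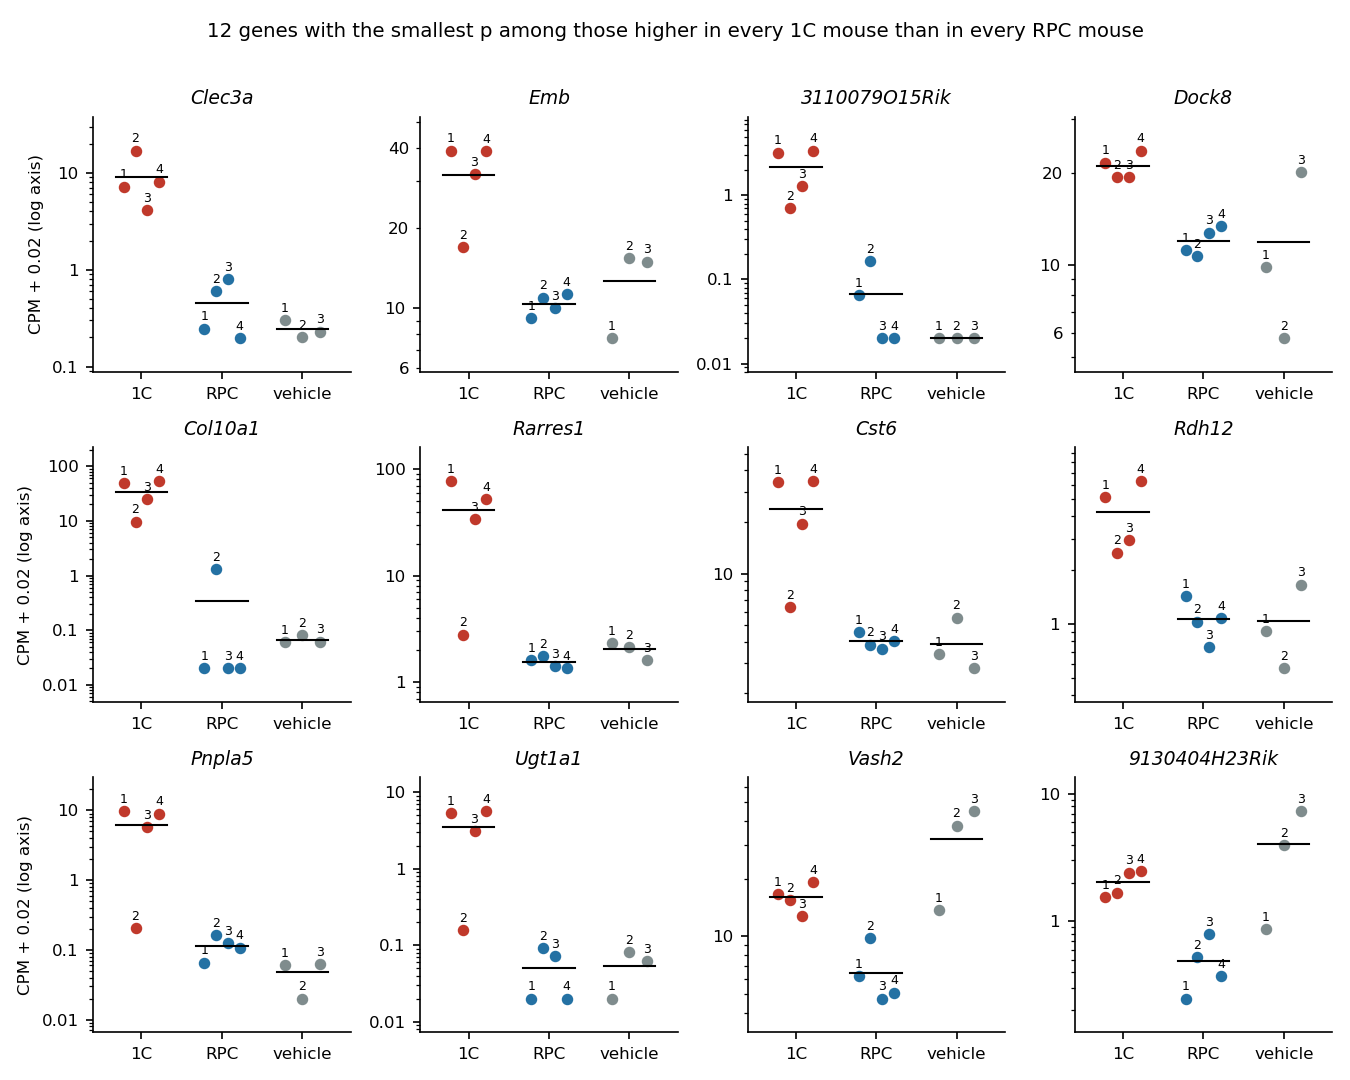
CPM with a small offset (log axis) of the 12 genes chosen by rule as higher in 1C, in each 1C, RPC and vehicle mouse; numbers are the mice and black bars the group means. Mouse 2 of 1C is the lowest of its group for Rarres1 (2.76 CPM), Pnpla5 (0.184 CPM) and Ugt1a1 (0.138 CPM) but the highest for Clec3a (16.9 CPM).

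Cholesterol synthesis genes were high in the same 3 mice of 1C. Sc4mol, a sterol methyl oxidase of that pathway, was at 155, 11.4, 90.8 and 124 CPM in 1C and 9.11 to 13.7 CPM in RPC. Here 1C mouse 2 lay within the RPC range. The cholesterol list had 20 of 21 tested genes higher in 1C with a median log2 fold change of 0.78, and 12 had an unadjusted p under 0.05. Over all tested genes, 6.12% were higher in 1C at that p. DESeq2 called 7 of the 21, all higher, among them Sc4mol (adjusted p = 1.51e-05). Elovl6, an elongase of saturated fatty acids, was at 356, 9.39, 257 and 348 CPM in 1C and 22.9 to 28.7 CPM in RPC, so that 1C mouse 2 was below every RPC mouse.

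Genes of fat tissue overlapped between the groups. Ucp1, the uncoupling protein that makes heat in brown fat, was at 205, 4.97, 154 and 382 CPM in 1C and 82.4, 123, 105 and 40.6 CPM in RPC, against 0.0404 to 1.89 CPM in vehicle mice. Cidea, a lipid droplet protein of brown fat and sebaceous cells, was at 149, 5.53, 100.2 and 300.3 CPM in 1C and 16.6 to 53.6 CPM in RPC. Elovl3, which both tissues express, was at 50.9, 0.506, 37.1 and 46.1 CPM in 1C and 0.397 to 1.19 CPM in RPC, a log2 fold change of 5.33 ± 1.12 (SE). The 2 most abundant of the brown fat genes, Cox8b and Cox7a1, which muscle also expresses, had log2 fold changes of 0.10 ± 0.38 and -0.03 ± 0.31. Of the 15 brown adipocyte genes, 11 were higher in 1C (median 0.59), and DESeq2 called 1 higher (Elovl3) and 1 lower (Ppargc1a). The coactivator Ppargc1a was at 38.8, 61.7, 55.5 and 74.6 CPM in 1C and at 110.0, 64.7, 594 and 243 CPM in RPC, highest in RPC mouse 3. Of 20 adipocyte genes, 15 were higher in 1C with a median of 0.19, and none was called by edgeR or DESeq2 (1 had an unadjusted edgeR p under 0.05).

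The study named 29 genes for its 0.2U dose, chosen on these samples, so that their direction is not independent evidence. The study compared them with vehicle, not 1C with RPC, and gave Slc2a3 and Hs3st5 as down-regulated. It gave Adipoq, Fasn, Scd1 and Pck1 as up-regulated at its later time point, and Ucp1 and Elovl6 at both. The list thus does not stand for a single direction of change. Its 29 point estimates were all higher in 1C than in RPC, with a median log2 fold change of 2.47. Of these, 19 had an unadjusted p under 0.05 and 16 were DESeq2 calls, all higher. The shares over all tested genes were 6.12% and 1.43%. The 29 genes fell into several kinds. The keratins, elongases and collagens of the list are given above. Alox12e, an epidermal lipoxygenase, was at 34.1, 0.368, 16.7 and 29.3 CPM in 1C and 0.272 to 1.19 CPM in RPC. The keratin Krt77, the cornified envelope protein Evpl and the lipid transporter Abca12 overlapped between groups, with log2 fold changes of 6.02 ± 1.58, 1.61 ± 0.46 and 1.86 ± 0.71 (SE). Fgfr3, a growth factor receptor of cartilage and skin, separated them, at 16.0 to 26.3 CPM in 1C and 9.73 to 15 CPM in RPC.

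The adipocyte and lipid enzymes of the study's list did not separate 1C from RPC. Adipoq was at 23.9 to 139.6 CPM in 1C and 64.5 to 86.8 CPM in RPC, and Pck1 at 14.5 to 336 CPM and 101 to 213 CPM. Fasn was at 632, 72.8, 368 and 1197 CPM in 1C and 329 to 469 CPM in RPC, and Scd1 at 196 to 4270.2 CPM against 828 to 1479 CPM. For all 4, 1C mouse 2 was below every RPC mouse. Slc2a3, a glucose transporter, and Hs3st5, a heparan sulfate sulfotransferase, had the smallest differences, 0.01 ± 0.41 and 0.10 ± 0.36 on the log2 scale. Mmp20, a metalloproteinase of tooth enamel, was at 15.7, 52.7 and 40.8 CPM in 1C mice 2 to 4 and 17.2 CPM in RPC mouse 2, but at 0 in 1C mouse 1 and in all vehicle mice. Wnt3a was at most 2.57 CPM in any mouse.

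The inflammatory genes of the list had a distribution of their own, with 1C mouse 1 low. Cd68, a lysosomal protein of macrophages, was at 9.95, 26.7, 49.0 and 28.8 CPM in 1C and 14.9, 7.07, 6.37 and 8.46 CPM in RPC. The monocyte attractants Ccl2 and Ccl7 were at 12.3 and 5.11 CPM in 1C mouse 2 and 15.1 and 13.6 CPM in 1C mouse 3, but at no more than 2.45 CPM in 1C mice 1 and 4 and 3.21 CPM in RPC. Across macrophage and monocyte genes, 21 of 27 were higher in 1C with a median log2 fold change of 0.40. DESeq2 called 6 of the 27, all higher, beside 1.43% of all tested genes. Gpnmb, a glycoprotein of lipid-laden and phagocytic macrophages, was at 11.6, 33.0, 44.2 and 43.7 CPM in 1C and 8.12, 7.72, 3.05 and 9.74 CPM in RPC, without overlap (DESeq2 adjusted p = 0.000366). Trem2, a lipid receptor of such macrophages, was at 1.32 to 7.29 CPM in 1C and 0.441 to 1.80 CPM in RPC. The abundant markers Lyz2 and Lgmn overlapped, with log2 fold changes of 0.91 ± 0.32 and 0.95 ± 0.35 (SE). Summed over 27 genes, the list ran from 524 to 1164 CPM in 1C, 491 to 698 CPM in RPC and 263 to 744 CPM in vehicle mice.

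All 14 neutrophil genes tested were higher in 1C, with a median of 1.16, but 0 were called by edgeR or DESeq2. At an unadjusted edgeR p under 0.05 there were 2, beside 6.12% of all tested genes. S100a9, a main protein of neutrophils, was at 128, 446, 79.7 and 91.9 CPM in 1C and 109, 100.2, 0.724 and 120.2 CPM in RPC. Mouse 2 of 1C and mouse 3 of RPC formed the extremes. Cxcr2, the neutrophil chemokine receptor, was at 2.53 to 8.15 CPM in 1C and 0.0517 to 1.85 CPM in RPC, and Lcn2 at 23.7 to 86.6 CPM and 5.85 to 26.9 CPM. Ltf, which glands express too, was at 507 CPM in 1C mouse 1 and 478 CPM in RPC mouse 3 and at 48.5 to 155 CPM in the others. All 28 proliferation genes were higher in 1C by point estimate (median 0.50), and again 0 were called by edgeR or DESeq2. At an unadjusted edgeR p under 0.05 there were 3, beside the same 6.12%. Mki67 was at 45.1 to 65.6 CPM in 1C and 13.9 to 49.6 CPM in RPC, the lowest value again in RPC mouse 3. Nusap1 and Aurkb of the mitotic spindle had log2 fold changes of 0.88 ± 0.35 and 0.67 ± 0.28, and Mcm2 of the replication helicase 0.33 ± 0.18 (SE).

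Of the 12 genes chosen by rule as lower in 1C, a rule that takes only genes whose groups do not overlap, Nr4a1 is described first. Nr4a1, an orphan nuclear receptor that muscle induces quickly after contraction or adrenergic input (chromosome 15, 101097277 to 101105223), was at 109, 155, 119 and 127 CPM in 1C. In RPC it was at 298, 406, 675 and 285 CPM, and in vehicle mice at 314, 353 and 370.4 CPM. All 1C mice were below all RPC and all vehicle mice. The log2 fold change was -1.71 ± 0.29 (SE), with an adjusted p of 0.244 by edgeR and 6.12e-06 by DESeq2. Its relative Nr4a3, named after its values were seen, was at 3.79, 13.5, 5.05 and 5.35 CPM in 1C and 42.6, 16.6, 401 and 74.5 CPM in RPC, but at 1.87 to 6.30 CPM in vehicle mice, near 1C.

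Irs2, the insulin receptor substrate (chromosome 8, 10986980 to 11008458), was at 18, 14.6, 11.8 and 12.7 CPM in 1C and 46.0, 53.5, 124 and 37.7 CPM in RPC. Vehicle mice, at 9.91 to 18.5 CPM, were near 1C. The difference was -2.19 ± 0.37 (SE) on the log2 scale, and DESeq2 gave an adjusted p of 6.12e-06. Slc25a34, a mitochondrial carrier, was at 12.6, 7.60, 21.1 and 13.2 CPM in 1C and 40.2 to 54.0 CPM in RPC, with vehicle mice at 15.3 to 27.5 CPM. Slc27a1, a fatty acid transporter of muscle, was at 54.0 to 64.8 CPM in 1C and 83.5 to 104 CPM in RPC. Pde4d, which degrades cAMP, was at 86.3 to 128 CPM in 1C and 168 to 197 CPM in RPC, and Rapgef3, a cAMP-activated exchange factor, at 24.3 to 36.4 CPM and 42.0 to 68.5 CPM.

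Neighbours on chromosome 15, Klhl38 and Fbxo32, were both lower in every 1C mouse. Fbxo32, or atrogin-1, is the muscle ubiquitin ligase subunit that increases in atrophy (58011634 to 58046433), and was at 195, 128, 184 and 125 CPM in 1C and 345, 255, 452 and 370.4 CPM in RPC. Klhl38, a kelch-like protein (58146128 to 58155724), was at 33.0, 22.8, 21.8 and 20.5 CPM in 1C and 56.2, 45.2, 61.4 and 53.3 CPM in RPC. Vehicle mice were at 214 to 338 CPM for Fbxo32 and 36.7 to 70.5 CPM for Klhl38, above all 1C mice in both. The annotated gene Gm15943 overlaps both on the opposite strand. Log2 fold changes were -1.17 ± 0.23 and -1.14 ± 0.17 (SE), with DESeq2 adjusted p of 0.00028 and 8.01e-06.

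The remaining genes of the rule were transcription, splicing and signalling genes. Klf11, a Kruppel-like factor, was at 8.66 to 11.9 CPM in 1C and 16.5 to 30.4 CPM in RPC, with 18.1 to 21.7 CPM in vehicle mice. Rbm20, the splicing regulator of titin, was at 35.9 to 59.2 CPM in 1C and 72.5 to 85.7 CPM in RPC, and Ccdc50 at 93.4 to 102 CPM and 119 to 169 CPM. The pseudogene Tmem181b-ps, at 1.74 to 2.00 CPM in 1C and 3.27 to 3.98 CPM in RPC, is uncertain, since 50.3% of its windows occur in other genes. All 12 had an edgeR adjusted p of 0.244 and a DESeq2 adjusted p between 6.12e-06 and 0.0141.

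**Figure D4:**
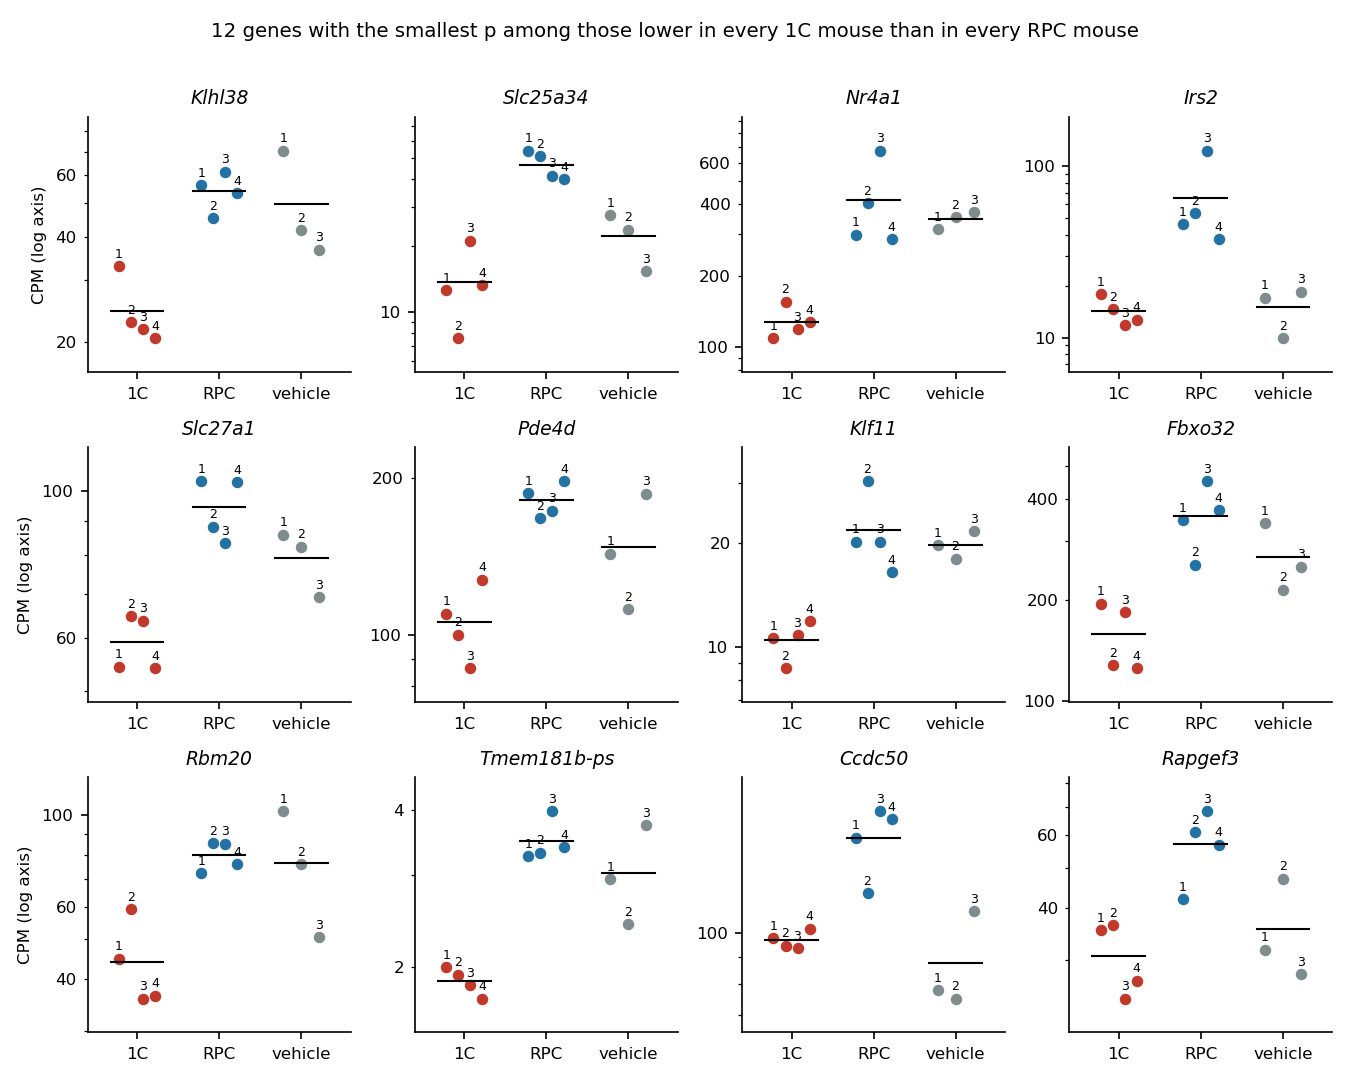
CPM (log axis) of the 12 genes chosen by rule as lower in 1C, in each 1C, RPC and vehicle mouse; numbers are the mice and black bars the group means. Vehicle mice lie near RPC for Nr4a1 (314 to 370.4 CPM) and Klf11 (18.1 to 21.7 CPM) and near 1C for Irs2 (9.91 to 18.5 CPM).

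The lists that hold these genes leaned lower in 1C by a small amount. Of 28 atrophy and stress genes, 21 were lower in 1C with a median log2 fold change of -0.23. DESeq2 called only Fbxo32, beside 0.741% of all tested genes called lower. Trim63, the partner ligase MuRF1, was at 113 to 206 CPM in 1C and 229.7, 144, 739.5 and 291 CPM in RPC, and thus overlapped. Mt2, a metallothionein, had the opposite sign, with 16.6 to 78.7 CPM in 1C and 10.7 to 18 CPM in RPC. Of 26 immediate early genes, which cells switch on within minutes of a stimulus, 17 were lower in 1C (median -0.23). DESeq2 called 2 lower, Nr4a1 and Nr4a3, and 2 higher, Egr2 and Egr3, beside 0.741% and 1.43% of all tested genes. Egr2, which Schwann cells also express, was at 16.3, 5.71, 16.2 and 18.2 CPM in 1C and 3.68 to 5.44 CPM in RPC, and Egr3, named after its values were seen, at 1.47 to 6.96 CPM and 0.0907 to 1.44 CPM. Jun, a subunit of the AP-1 factor, had a log2 fold change of -0.19 ± 0.25 (SE). Of 19 clock genes, 15 were lower in 1C (median -0.20). DESeq2 called only Bhlhe40, beside 0.741% of all tested genes called lower. Bhlhe40 was at 103 to 154 CPM in 1C and 139 to 332 CPM in RPC. Nfil3 and Tef differed by -0.76 ± 0.29 and -0.09 ± 0.27.

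Genes of the muscle fibre differed in both directions, and few separated the groups. Myh8, the perinatal myosin heavy chain that regenerating fibres and the masseter express, was at 305, 314, 263 and 268 CPM in 1C and 1114, 472, 445 and 785 CPM in RPC, without overlap (DESeq2 adjusted p = 0.00195). Vehicle mice ranged from 182 to 763 CPM. Myh1, the fast IIx myosin, was at 5451 to 7298 CPM in 1C and 8244 to 13691 CPM in RPC, and Pvalb, the calcium buffer of fast fibres, at 6267 to 8440.4 CPM and 4822 to 5512 CPM. Both myosins share windows with other myosin genes, 16.7% for Myh8 and 25.2% for Myh1, and reads that align to several places were not counted. Acta1 and Atp2a1, the actin and calcium pump of fast muscle, had log2 fold changes of 0.08 ± 0.28 and -0.12 ± 0.28. The satellite cell factor Myod1 was at 23 to 71.6 CPM in 1C and 13.2 to 42.4 CPM in RPC, and desmin (Des) differed by -0.04 ± 0.23. Ankrd2, a stress-responsive protein of slow fibres, was at 15, 57.9, 77.2 and 28.3 CPM in 1C and 12.1 to 31.5 CPM in RPC, a log2 fold change of 1.25 ± 0.51 (SE) with overlap. Actc1, the cardiac actin, was at 163 to 1111 CPM in 1C and 46.3 to 619 CPM in RPC. The medians of fast sarcomere, slow and cardiac-type sarcomere, and regeneration genes were 0.17, 0.07 and 0.03. Of 28 fatty acid oxidation genes tested, 4 were lower in 1C at an unadjusted edgeR p under 0.05, and 2 of these separated the groups. Over all tested genes the shares were 3.88% and 1.89%. DESeq2 and edgeR called 0 of the 28. Pdk4, which restrains glucose oxidation, was at 501, 256, 739 and 661 CPM in 1C and 2297, 819, 1142 and 699 CPM in RPC, a log2 fold change of -1.20 ± 0.45 (SE). Mlycd, which degrades malonyl-CoA, was at 67.9 to 76.3 CPM in 1C and 77.7 to 119.6 CPM in RPC. The medians of fatty acid oxidation, glycolysis and respiratory chain genes were 0.00, 0.01 and -0.04, and of the 73 respiratory chain genes 0 were called by edgeR or DESeq2 or had an unadjusted edgeR p under 0.05.

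Salivary gland genes had the lowest median of the 37 lists, with 22 of 23 tested genes lower and a median log2 fold change of -2.02. The mice overlapped for most of them. Bpifa2e, a secreted protein of the parotid gland, was at 1339, 109.6, 25518 and 78.0 CPM in 1C and 26886, 330995, 195077 and 104909 CPM in RPC, whereas vehicle mice ran from 42.4 to 171368 CPM. Smr3a, another salivary secretory protein, was at 37.8 to 21029 CPM in 1C and 13817 to 142720.0 CPM in RPC. The 3 DESeq2 calls, all lower, were Klk1, Slc12a2 and Amy1. Klk1 (kallikrein) was at 14.9, 9.90, 151 and 6.60 CPM in 1C and 109, 1502, 752 and 504 CPM in RPC, and 31.1% of its windows occur in other kallikreins. Slc12a2, the chloride cotransporter of secretory cells, was at 113 to 131 CPM in 1C and 103 to 477 CPM in RPC. The salivary amylase Amy1, named after its values were seen, was at 71.0 to 10051 CPM in 1C and 8885 to 113578 CPM in RPC, and 33.5% of its windows occur in other genes. Leaving out 1C mouse 3, the 1C mouse richest in these genes, moved the median of the list to -6.10.

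EdgeR called 0 members of the remaining lists. Schwann cell genes had a median of 0.29, with 16 of 18 higher in 1C, and DESeq2 called 2 higher and 1 lower. Matrix remodelling genes (30 of 39 higher, median 0.30), lipid synthesis genes (21 of 25, 0.25), chemokines (12 of 21, 0.03) and tendon genes (5 of 9, 0.01) each held 1 DESeq2 call, which was higher. Over all tested genes DESeq2 called 1.43% higher, so 1 call says little about a list. The other lists held no DESeq2 call and at most 2 genes each with an unadjusted edgeR p under 0.05. Among them, endothelial genes (16 of 21 higher, median 0.16), B cell genes (7 of 12, 0.33, but -1.08 without 1C mouse 2 and RPC mouse 3), blood genes (6 of 6, 0.53), interferon response genes (18 of 27, 0.06) and neuromuscular junction genes (10 of 13, 0.05) had medians above 0. Medians below 0 were found for fibroblast (-0.0080), T and NK cell (-0.10), heat shock (-0.13), ribosomal protein (-0.18) and MHC class II genes (-0.26, but 0.22 without those mice).

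**Figure D5:**
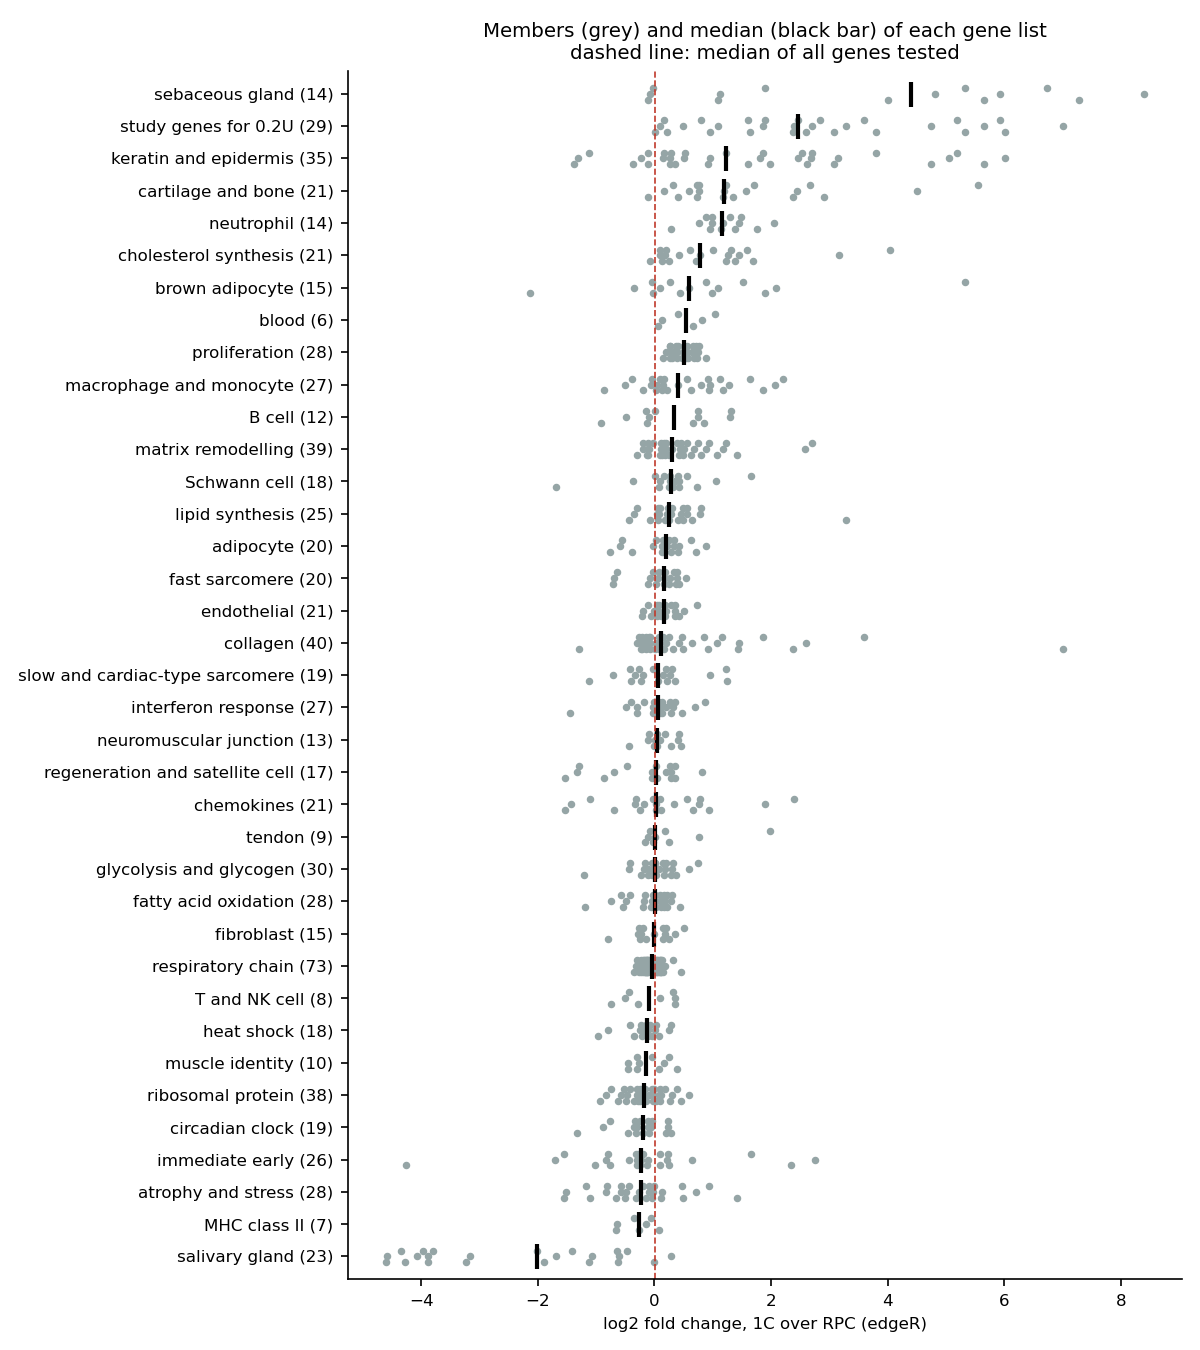
Log2 fold change of 1C over RPC (horizontal axis) for the tested members of 37 gene lists (grey points) with each list's median (black bar); the number tested is in parentheses and the dashed line is the median of all genes, 0.01. Sebaceous (4.41), keratin (1.23) and cartilage (1.19) medians lie to the right and the salivary median (-2.02) to the left, while those of muscle and energy metabolism lie near the line.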

How the data were processed

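RNA-seq of 31 mouse MM libraries was deposited as 1 table of raw read counts per gene symbol for each library; the authors selected poly(A) RNA with a kit that keeps strand, read 50 bases from 1 end, and mapped to mm9 with TopHat2, while the submitters' processing notes add HTSeq. These deposited counts carry no scaling, and reads aligning to several places, which are among the 5 closing lines left out here, are missing from them. Groups came from the sample titles. Whether the counting used strand is not given in the sources used here.

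The 8 libraries of 1C and RPC were fitted with edgeR 4.0.16 (R 4.3.3; TMM scaling, quasi-likelihood test, group only, Benjamini-Hochberg adjustment over 14570 genes reaching 10 counts in 3 or more libraries). RPKM used GENCODE vM1 exon lengths (21627 symbols matched, 52 by synonym, the median of 2837 bp for the 930 others). DESeq2 1.42.0 and limma 3.58.1 (voom) served as alternatives, beside other scalings, filters, sample sets, thinning to the smallest library, a replicate block and leaving out each mouse. Vehicle CPM came from a TMM scaling of 11 libraries, which moved the CPM of the other 8 by -3.47% to 1.50%. In data simulated on these libraries, 200 of 14449 genes tested were changed 4-fold. EdgeR called 158 of the 200 with 14 wrong calls, and DESeq2 179 with 52 wrong calls. In the real libraries no gene passed edgeR, although point estimates of some genes, such as Clec3a and Awat1, were above 4-fold. The simulated rates are therefore not taken as rates for the real mice. The lack of edgeR calls does not show that changes of this size are absent.

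Genes were named by a rule: 12 in each direction (those passing adjusted p, filled, as 0 passed, by smallest p among genes with groups that do not overlap and a mean RPKM over 1), the study's 29 genes for 0.2U, and in each list described the members passing or else the 2 of smallest p and the 2 of highest CPM. The comparison and the 37 lists were chosen with earlier results of these data known. Where a group had 3 counts or fewer in every library, folds were computed against 3 counts per library. The share of 50-base windows of a gene found in transcripts of other genes was computed from GENCODE vM1. At the depths of these libraries 10 counts are 0.386 to 0.608 CPM before TMM scaling. None of the 465 library pairs was a duplicate. Each library is 1 mouse, by the study's methods. A few genes that the rule names are not reported here.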

Additional observations from a re-analysis of the deposited data

Results flagged for a closer look

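Within each group of 4 mice, 286 sets of values (the named genes and the list means, as log2 CPM) were tested for a single mouse far from the others by Dixon's test at the 95% level, and 33 were past it, where chance gives about 1 in 20. Genes of 1 tissue share their mice, so these are not 33 separate events. No explanation was tested.

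Mouse 2 of 1C was low for genes of skin and sebaceous gland. Its log2 CPM was 4.35 for Krt14, 1.49 for Krt17, -3.34 for Krt77 (no count), 0.42 for Krt79, -0.038 for Pnpla1, -1.10 for Alox12e, -1.82 for Pnpla5, -2.79 for Awat1 and -0.038 for Far2. The elongases gave -0.72 (Elovl3), 2.46 (Elovl4) and 3.25 (Elovl6), and Egr2 gave 2.54. The list means of this mouse were 0.60 for sebaceous gland and 3.19 for cholesterol synthesis, both low, and 5.67 for neutrophil genes, which was high.

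Mouse 3 of RPC was low for Cxcr2 (-2.73), S100a9 (-0.28) and Mki67 (3.80) and for the means of the neutrophil (-0.017), B cell (-1.46) and blood (2.81) lists, and high for Krt10 (7.98). Mouse 2 of RPC was high for Col10a1 (0.48), Krt77 (-1.37), Mmp20 (4.11) and Lect1 (0.98), all cartilage, tooth or skin genes. For Col10a1 and Krt77 the other RPC mice were tied at no count. Any count in a single mouse then passes Dixon's test, so these flags carry little weight. Mouse 1 of 1C was low for Col1a1 (10.29) and for the means of matrix remodelling (4.92) and cartilage and bone genes (3.92). Mouse 4 of RPC was low for Krt79 (0.21), mouse 1 of RPC was high for the respiratory chain mean (7.67), and mouse 3 of 1C was high for Slc12a2 (7.04).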

How the results depend on the processing

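Counts of genes past an adjusted p of 0.05 were 0 higher and 0 lower in 1C with edgeR. They became 209 and 108 with DESeq2, 81 and 9 in 1 fit over all 31 libraries, and 154 and 5 without 1C mouse 2 and RPC mouse 3 together, an alternative chosen after seeing the data. DEGs were 145 and 61, 65 and 7, and 122 and 4 in the same order. Leaving out 1 mouse at a time gave 0 to 145 higher and 0 to 3 lower, and 0 to 112 and 0 to 3 DEGs. The highest counts came without 1C mouse 2 (145 and 2, with 112 and 2 DEGs), and 3 lower genes came without 1C mouse 3. The other alternatives gave 0: DESeq2 size factors, no filter on low counts, thinning, the vehicle group in the fit, voom, muscle gene scaling and, for DEGs, no RPKM threshold. The cause was not tested. The replicate block, which pairs mice by number, also gave 0 and 0, with 494 higher and 363 lower at an unadjusted p under 0.05. With the group mean of each gene subtracted, the log2 CPM of same-numbered mice correlated at -0.38, -0.23, 0.06 and 0.28. These few values cannot decide whether mice were paired, and the sample titles do not say what the numbers mean. Scaling to muscle identity genes, added after seeing the data, moved the all-gene median to -0.06.

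With salivary and sebaceous scores as covariates (also added later, and leaving few residual degrees of freedom) edgeR called 0 genes, and log2 fold changes turned for Krt77 (-2.41), Elovl6 (-0.98), Alox12e (-0.0038), Adipoq (-2.11), Fasn (-3.56), Scd1 (-3.35), Pck1 (-3.89), Ucp1 (-4.31), Hs3st5 (-0.14), Acta1 (-0.16), Actc1 (-0.26), Des (0.20), Nfil3 (0.054), Col1a2 (-0.41), Lect1 (-0.051), Krt10 (-0.92) and Cidea (-3.56). The sebaceous score is made of the sebaceous genes themselves, so the lower medians of that list and of lists high in the same mice follow by construction. These medians were 0.11 for sebaceous, -0.0038 for keratin, 0.15 for cholesterol and 0.62 for the study's genes. Single genes went past 0, such as Cidea, a member of the sebaceous list, which went from 1.89 to -3.56. Other medians moved away from 0 or turned: adipocyte -1.49, brown adipocyte -1.58, lipid synthesis -0.91, fatty acid oxidation -0.80, clock -0.45, collagen -0.38, immediate early 0.071, ribosomal protein 0.18, MHC class II 0.22, T and NK cell 0.67, chemokines 0.77, proliferation 1.20 and macrophage 1.32. With the block Adipoq gave -0.014, Fasn -0.0060, Pck1 -0.26, Cox8b -0.081 and Krt2 0.35. With voom Slc2a3 gave -0.19, Hs3st5 -0.057, Cox8b -0.36 and Krt2 0.36. Without both mice Slc2a3 gave -0.49, Hs3st5 -0.34, Cox8b -0.40, Acta1 -0.061, S100a9 -0.13, Col1a2 -0.51, Krt2 0.71 and Ckm -0.016. Slc2a3 gave -0.0011 with DESeq2, -0.0013 with its size factors, -0.025 with vehicle in the fit and -0.049 under muscle scaling, where Cox8b gave -0.0024, Col1a2 -0.0089 and Krt10 -0.092. Over fits that left out 1 mouse each, the sign turned within the range for Adipoq (-0.065 to 0.55), Fasn (-0.17 to 0.87), Pck1 (-0.26 to 0.57), Slc2a3 (-0.27 to 0.47), Hs3st5 (-0.12 to 0.31), Cox8b (-0.34 to 0.33), Cox7a1 (-0.33 to 0.19), Des (-0.15 to 0.082), Tef (-0.25 to 0.10), Jun (-0.32 to 0.011), Ltf (-0.69 to 1.63), Col1a2 (-0.31 to 0.64), Krt10 (-0.12 to 1.19) and Krt2 (-0.40 to 1.0). The median of the salivary list was -5.47 with voom, -4.76 with the block and -6.10 without 1C mouse 3, and that of the collagen list 0.57 without RPC mouse 1. Without both mice the B cell median was -1.08 and the MHC class II median 0.22. None of these genes passed edgeR in the 8 mice.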

Other observations

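Of the genes DESeq2 called, 49 of 209 higher in 1C and 11 of 108 lower were members of a list. The lists hold 917 entries, with some genes in several lists. The share of all 14570 tested genes in a list was not computed, so these counts carry no reading about the lists. The genes below come from among the 8 in each direction with the smallest DESeq2 adjusted p outside the lists, chosen after their values were seen. None passed edgeR, and no explanation is offered.

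Several genes higher in 1C act in skin lipids and again had 1C mouse 2 near RPC. Acer1, an alkaline ceramidase of epidermis, was at 28.0, 1.24, 17.7 and 25.4 CPM in 1C and 0.352 to 1.81 CPM in RPC. Lass4, a ceramide synthase, was at 149, 8.79, 73.3 and 119 CPM in 1C and 8.64 to 10.8 CPM in RPC. Fabp5, the epidermal fatty acid binding protein, separated the groups, at 45.8, 12.3, 84.0 and 108 CPM in 1C and 3.22 to 9.31 CPM in RPC. For this gene, too, 1C mouse 2 was the lowest of its group.

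Among genes lower in 1C, Txnip, a glucose-responsive inhibitor of thioredoxin, was at 535, 623, 691 and 859 CPM in 1C and 1351, 1350.1, 1456 and 1071 CPM in RPC, with 1243 to 1696 CPM in vehicle mice. Insr, the insulin receptor, was at 86.7 to 107 CPM in 1C and 129.6 to 152 CPM in RPC. Both separated the groups. Snph and Rasal1 were highest in RPC mouse 2, the mouse with the highest salivary sum, at 36.9 and 31.9 CPM, and were at most 4.91 CPM in 1C.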
